A study of Mus musculus with 36 samples.

Results

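The genes described here are the autosomal protein-coding genes of at least 20 kb whose bodies were broadly covered by H3K36me2 in cultured hippocampal progenitors. A gene was selected when islands, the enriched regions called separately for each library, covered at least 50% of its body from start to end in both control neurosphere H3K36me2 libraries. The rule selected 1135 of 9678 genes (11.7%). Of the control libraries, replicate 1 alone passed 1575 genes and replicate 2 alone 1550, and 855 genes passed in only 1 of the replicates. The median covered shares that follow for control neurospheres restate this selection and carry no test.

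The series profiled 3 histone marks by chromatin immunoprecipitation sequencing in mouse hippocampus at postnatal day 0 and in neurospheres, progenitor cells from hippocampi of that age that were expanded in suspension with FGF2 and EGF and passaged before use. Each mark was measured in 2 Ctrl libraries (Kdm2bfl/+ or Kdm2bfl/fl) and 2 cKO libraries (Kdm2bEmx1-delta-CxxC) per source, which gave 24 island files. The floxed allele flanks exon 13 of Kdm2b, which encodes the CxxC zinc finger that binds unmethylated CpG islands, and Emx1-Cre removes it in dorsal telencephalic progenitors and their progeny. Cells of other origin in the hippocampus, such as microglia and endothelium, keep the intact allele. Control animals carried at least 1 floxed allele, and how many animals or cultures stood behind a library is not given in the sources used here.

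H3K36me2 is deposited by NSD1, NSD2, NSD3 and ASH1L, and spreads over intergenic chromatin and gene bodies. It hinders PRC2, the complex that writes H3K27me3, and is read by the DNA methyltransferase DNMT3A. KDM2A and KDM2B remove it, and KDM2B also brings a variant PRC1 complex, which writes H2AK119ub1, to CpG islands. Unmethylated CpG islands at gene starts are therefore known as places where the mark is low.

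The sequences below show the contrast on which much of what follows turns, a CpG-dense start that seldom lay in an island and a CpG-poor intron that did. They belong to Anxa11, Kcnk5 and Dapk2, the 3 selected genes with a CpG-rich start that kept the highest covered share in their least covered hippocampus H3K36me2 library. For each gene the first line is the 300 bases before the start site and the second is 300 intronic bases at the middle of the longest stretch that lay inside islands in all 8 H3K36me2 libraries. Sequences are mm10, 5′ to 3′ on the gene's strand (plus for Anxa11 and Dapk2, minus for Kcnk5), and capitals mark CpG dinucleotides. None of the windows overlaps an annotated exon.
Anxa11 upstream chr14:25841856-25842155: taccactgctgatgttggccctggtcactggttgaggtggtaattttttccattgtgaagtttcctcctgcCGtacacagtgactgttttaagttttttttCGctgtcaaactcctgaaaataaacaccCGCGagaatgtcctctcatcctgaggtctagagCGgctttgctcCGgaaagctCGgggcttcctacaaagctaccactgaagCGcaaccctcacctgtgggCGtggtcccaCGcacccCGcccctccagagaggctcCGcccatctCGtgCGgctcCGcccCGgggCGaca
Anxa11 intron chr14:25877751-25878050: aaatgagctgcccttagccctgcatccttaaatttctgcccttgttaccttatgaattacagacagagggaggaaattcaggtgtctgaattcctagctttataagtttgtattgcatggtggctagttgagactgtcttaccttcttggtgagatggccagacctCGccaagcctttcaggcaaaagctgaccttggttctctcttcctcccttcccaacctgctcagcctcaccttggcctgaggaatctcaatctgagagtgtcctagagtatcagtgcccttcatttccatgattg
Kcnk5 upstream chr14:20181810-20182109: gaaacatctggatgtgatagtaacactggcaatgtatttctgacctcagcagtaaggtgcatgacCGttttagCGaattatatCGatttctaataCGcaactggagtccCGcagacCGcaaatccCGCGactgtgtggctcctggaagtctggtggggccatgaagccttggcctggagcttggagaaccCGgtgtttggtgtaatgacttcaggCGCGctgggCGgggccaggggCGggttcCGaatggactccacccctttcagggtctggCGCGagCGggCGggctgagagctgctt
Kcnk5 intron chr14:20170651-20170950: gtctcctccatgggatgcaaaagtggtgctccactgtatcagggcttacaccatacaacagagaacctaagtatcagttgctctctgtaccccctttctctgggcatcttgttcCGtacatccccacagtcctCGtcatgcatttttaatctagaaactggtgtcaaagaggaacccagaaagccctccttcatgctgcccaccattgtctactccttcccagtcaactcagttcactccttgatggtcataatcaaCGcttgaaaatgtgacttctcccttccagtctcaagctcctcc
Dapk2 upstream chr9:66157923-66158222: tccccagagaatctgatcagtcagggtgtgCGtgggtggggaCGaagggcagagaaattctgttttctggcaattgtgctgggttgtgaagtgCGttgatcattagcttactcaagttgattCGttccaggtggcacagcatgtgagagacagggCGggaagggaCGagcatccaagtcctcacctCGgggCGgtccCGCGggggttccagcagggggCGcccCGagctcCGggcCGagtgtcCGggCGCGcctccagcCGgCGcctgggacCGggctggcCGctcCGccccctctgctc
Dapk2 intron chr9:66266151-66266450: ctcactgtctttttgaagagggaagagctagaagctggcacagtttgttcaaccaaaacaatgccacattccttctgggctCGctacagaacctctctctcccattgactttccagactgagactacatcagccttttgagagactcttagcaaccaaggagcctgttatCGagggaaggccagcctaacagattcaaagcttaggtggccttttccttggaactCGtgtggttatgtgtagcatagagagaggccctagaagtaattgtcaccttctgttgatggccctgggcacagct

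The upstream windows held 17 CpG dinucleotides in Anxa11, 18 in Kcnk5 and 22 in Dapk2, and the intronic windows held 1, 3 and 3. Each upstream window lay inside an H3K36me2 island in 1 of the 8 libraries, whereas the intronic windows were chosen to lie inside islands in all 8. The shared stretches spanned 2.6 kb in Anxa11, 0.4 kb in Kcnk5 and 1.4 kb in Dapk2. Over all selected genes the 300 bases before the start held a median of 15 CpG dinucleotides (quartiles 7 and 25), against 13 (5 and 23) in the other genes. The bodies held a median of 3.88 per 300 bases in the selected genes and 3.07 in the other genes.

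Libraries differed widely in covered length and in counts inside islands. The islands of a library covered 37.3 to 497 Mb and held 987329 to 22021439 counts. The neurosphere cKO replicate 2 library for H3K36me2 stood apart from the other 3 of its mark and source, with 10587042 counts in islands against at least 19827572, so values for neurosphere cKO are given for each replicate. H3K27me3 islands at marker promoters were checked against the labelled sources. In the Ctrl libraries of both sources they covered 0% of the promoters of the forebrain progenitor genes Emx2 and Sox2, but 100% at Pax6, and Emx1 was at 0% in hippocampus and 100% in neurospheres. Lhx2 had 0% in hippocampus and up to 80.0% in neurospheres, and Nes at most 23.1%. Of the oligodendrocyte lineage genes Pdgfra had 100% in both, while Olig2 and Sox10 had 100% and 54.0% to 59.0% in hippocampus and 0% in neurospheres. Of the microglial genes Ptprc had 0% in both, and Csf1r and Cx3cr1 had 0% in hippocampus and up to 44.99% and 100% in neurospheres. Of the endothelial genes Kdr had at least 91.4% in both, Pecam1 0%, and Cdh5 0% in hippocampus and 0% to 100% in neurospheres. The markers of a class thus did not share one state, and the labelled sources could not be checked from them.

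The selected genes were longer and richer in G and C than the rest. Their median length was 72.75 kb against 47.3 kb, and their median GC content 47.2% against 43.1%. Sorted by GC content into quartile groups of all 9678 genes, these held 0, 69, 504 and 562 selected genes from the lowest to the highest. Sorted by length, they held 173, 216, 311 and 435. A CpG-rich window at the start was present in 713 of the selected genes (62.8%) and in 56.8% of the others. By chromosome, between 9.66% (chromosome 4) and 14.4% (chromosome 6) of the genes were selected.

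Selected genes often lay next to each other. In the order of genes of at least 20 kb along a chromosome, 486 of them (42.8%) were adjacent to another selected gene, in 197 runs. The longest runs held 6 genes. One of these lay on chromosome 17 from 6978904 to 7827302 and ended with Fndc1. Neighbouring genes could share islands, and 80 and 95 selected genes shared an island with another in the control replicates. The body of a selected gene was broken into a median of 7 and 6 islands in these libraries, and 59 and 102 genes lay inside a single island.

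Genes on either side of the threshold differed little. Ttc7b was just inside with covered shares of 56.0% and 50.01% in the control replicates, as were Ctsb with 52.6% and 50.03% and Frrs1 with 50.04% and 61.1%. Just outside were Kirrel3 (49.998% and 67.1%), Acap2 and Svopl.

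In neurospheres the median selected gene was covered over 71.1% and 71.8% of its body by H3K36me2 in the Ctrl replicates, the values used for selection. The cKO replicates gave 76.8% and 31.1%. The other genes had medians of 5.53% and 5.93% in Ctrl and 18.8% and 0.409% in cKO. Thus 1 cKO library lay above both controls and the other far below them, for the selected genes and for the rest alike. At least 50% of the body was covered in 1097 selected genes in cKO replicate 1 and in 262 in replicate 2, and 256 kept that share in all 4 libraries. Among the other genes 21.6% and 2.62% reached it in the cKO replicates.

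The hippocampus libraries had no part in the selection. There H3K36me2 covered a median of 11.3% and 8.49% of the selected gene bodies in Ctrl and 15.2% and 13.1% in cKO, while the median of the other genes was 0% in each of the 4 libraries. The mean covered share was 13.6%, 10.1%, 17.3% and 15.0% for the selected genes, in the order Ctrl 1, Ctrl 2, cKO 1 and cKO 2, and 3.40%, 2.53%, 4.07% and 3.73% for the other genes. An island was present in all 4 hippocampus libraries in 740 selected genes (65.2%) and in 18.7% of the others. Full coverage was rare, since 15, 3, 33 and 17 selected genes reached 50%, and none reached it in all 4. Fewer cells carrying the mark and less of it per cell cannot be told apart in such bulk libraries. The hippocampus H3K36me2 libraries also held fewer counts in islands, 3109819 to 4504325 against 10587042 to 22021439 in neurospheres. The part of this in the lower hippocampus coverage was not tested.

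**Figure D1:**
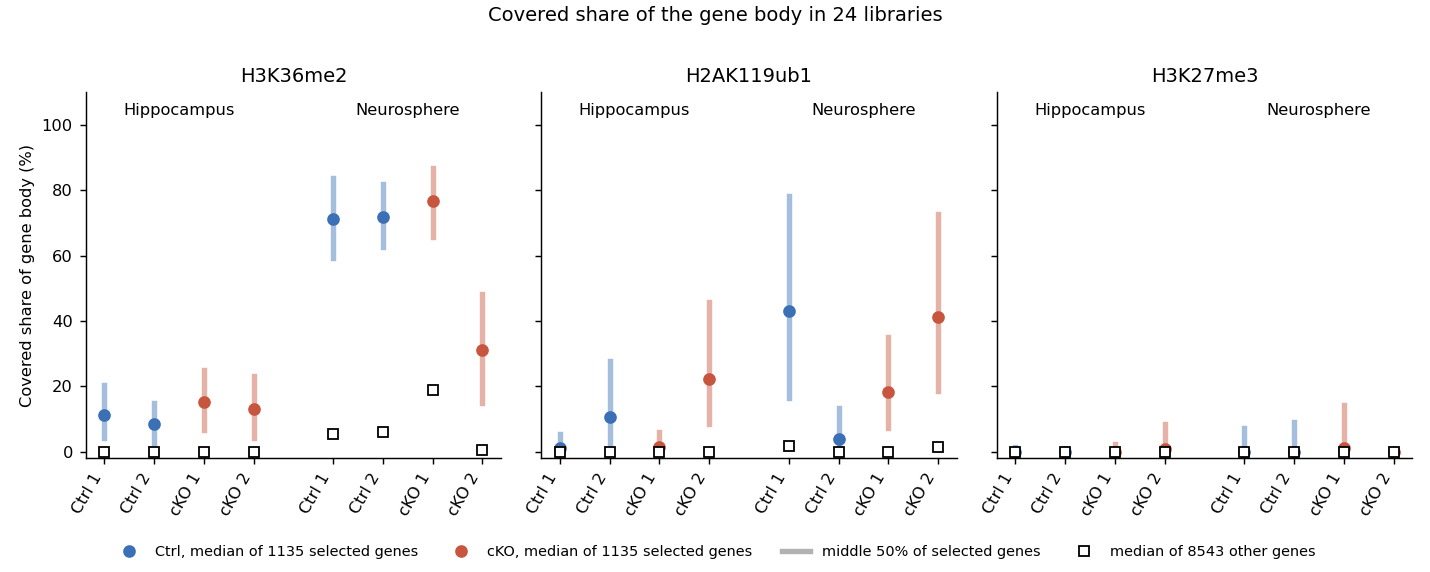
Median covered share of the gene body (percent) in each of the 24 libraries, by mark and source, for the 1135 selected genes (points, with bars over the middle 50% of genes) and the other 8543 genes (open squares). Selected genes lie above the rest in every H3K36me2 library without a part in the selection, and the neurosphere cKO replicates differ (76.8% and 31.1%). In the control neurosphere H3K36me2 libraries the selection itself sets them above the rest.

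Selected genes differed from the other genes mainly in how much of the gene was covered and less in the density within islands, which was also higher in all 8 H3K36me2 libraries. In hippocampus, counts per kb of H3K36me2 island inside selected genes were 28.1, 27.3, 28.6 and 29.1, and 27.4, 26.8, 28.0 and 28.5 inside the other genes. Per kb of gene body, selected genes in Ctrl replicate 1 held 4.01 counts and the other genes 1.38. In neurospheres the counts per kb of island were 58.3, 48.0, 47.5 and 30.6 in selected genes against 53.3, 43.6, 42.6 and 29.4. Per kb of gene body they were 40.2, 34.3, 34.7 and 11.7 against 7.80, 7.48, 9.62 and 4.60.

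Base composition moved with coverage, and in opposite ways in the cKO neurosphere replicates. From the second to the highest GC quartile group, the mean H3K36me2 share of the selected genes went from 54.7% through 68.2% to 84.7% in cKO replicate 1, and from 50.5% through 42.6% to 21.5% in replicate 2. In the highest quartile group the other genes stood at 57.9% and 2.92% in these replicates. In hippocampus the share varied less with GC content, and the selected genes exceeded the others within each quartile group that held any. In Ctrl replicate 1 the means were 13.2% and 3.78% in the second quartile group and 14.1% and 4.12% in the highest. The part that base composition has in the difference between the cKO neurosphere replicates was not tested.

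**Figure D2:**
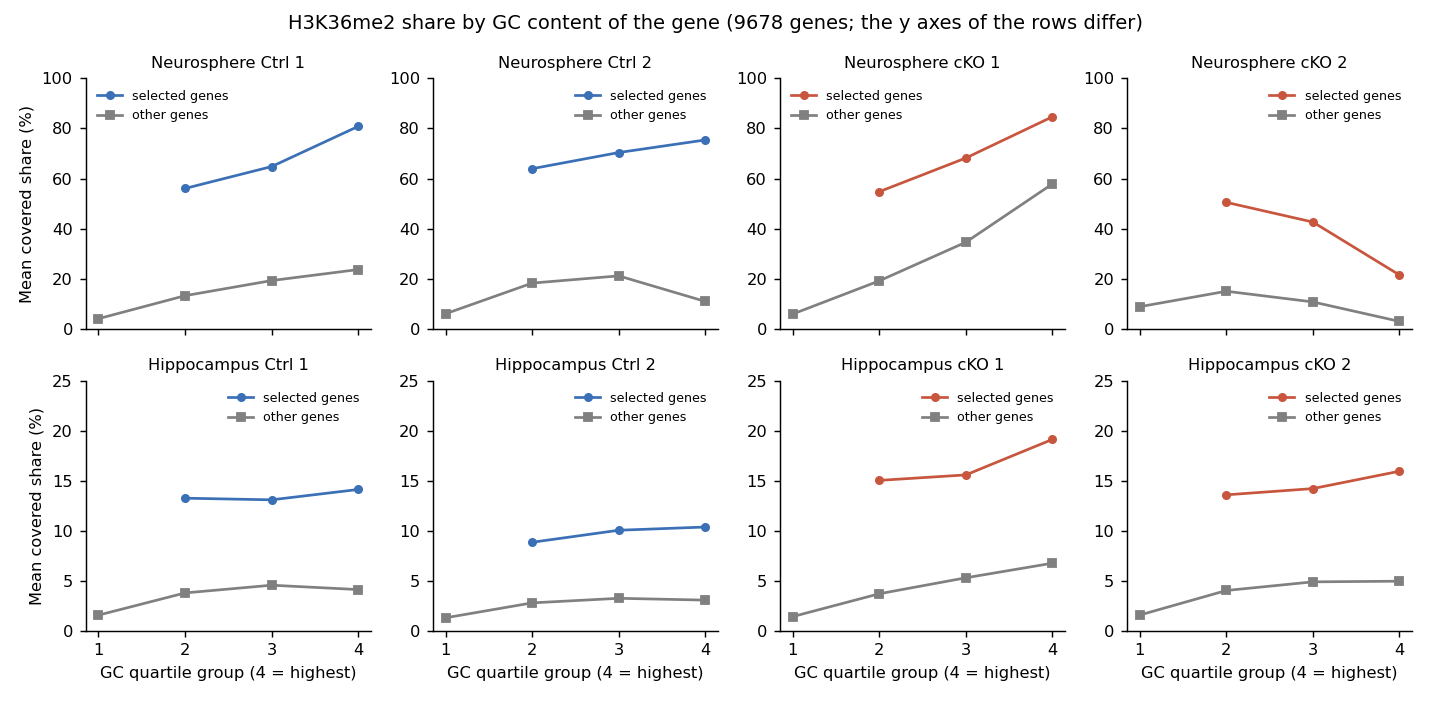
Mean H3K36me2 covered share (percent) in each H3K36me2 library against the GC quartile group of the gene body, for selected and other genes. The neurosphere cKO replicates run in opposite directions (to 84.7% and 21.5% in the highest quartile group), and the hippocampus lines for selected genes stay above those for other genes.

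Within the gene, the islands lay toward the middle. Each body was divided into 10 equal parts from the start to the end. In the hippocampus libraries the mean share of the first part minus that of parts 5 and 6 was -6.33, -4.92, -6.68 and -6.29 percentage points, and in neurospheres -15.8, -20.6, -10.8 and -8.46. The last part minus the middle was -7.03, -4.11, -8.58 and -7.41 points in hippocampus and -9.01, -19.8, -1.34 and -14.9 in neurospheres. So the dip at both ends was seen in all 8 H3K36me2 libraries, in the libraries with and without a part in the selection. The rule chose genes by coverage between their ends, so a fall toward the ends can follow from it. Its part in the dip was not tested. In the other genes the first part minus the middle ranged from -3.28 to -0.566 points. Their last part minus the middle ranged from -3.30 to 3.95 points, and was positive only in neurosphere cKO replicate 1.

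In the first part of the gene both Polycomb marks were higher than in the middle, for H2AK119ub1 only slightly in some libraries. The first part of the selected genes held more H3K27me3 than the middle in all 8 libraries of that mark, by 6.14 to 10.9 points in hippocampus and 2.30 to 6.42 in neurospheres. In hippocampus Ctrl replicate 1, for example, the first part was covered over 9.86% and the middle over 2.57%. H2AK119ub1 was higher in the first part by 0.768 to 10.5 points in hippocampus and 0.192 to 6.95 in neurospheres. Within 2 kb of the start, H2AK119ub1 exceeded its body mean in each Ctrl library and in hippocampus cKO replicate 2 (34.5% against 29.3%). It was below that mean in hippocampus cKO replicate 1 (2.90% against 3.67%) and the neurosphere cKO replicates (17.5% against 23.3%, 38.6% against 45.6%). In the other genes those libraries gave 1.64% against 1.22%, 10.02% against 10.6%, and 18.7% against 19.3%. The last part minus the middle ran from -0.199 to 0.871 points for H3K27me3 and from -1.85 to 3.35 for H2AK119ub1. In the other genes the first part also exceeded the middle, by 2.99 to 6.37 points for H3K27me3 and 0.00422 to 5.17 for H2AK119ub1.

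**Figure D3:**
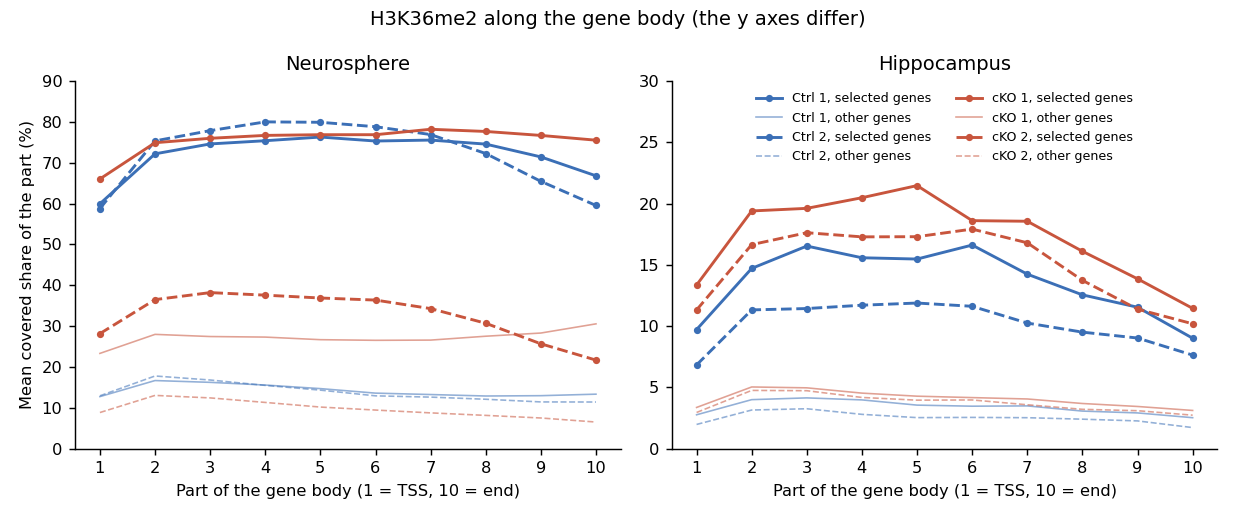
Mean covered share (percent) of the selected genes in 10 equal parts of the gene body, from start to end, for H3K36me2 in 8 libraries, selected genes as thick lines and other genes as thin lines, with different y axes for the sources. In selected genes parts 1 and 10 lie below parts 5 and 6 in all 8 libraries, by the least in part 10 of neurosphere cKO replicate 1 (-1.34 points).

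At the start site itself the mark was lowest where the start was CpG-rich. Over 1 kb bins around the start, the 713 selected genes with a CpG-rich start had their lowest H3K36me2 share in 1 of the bins next to the start in each of the 8 libraries. The lowest bin was covered over 0.0289%, 0.0687%, 0.295% and 0.341% in hippocampus and 21.2%, 15.1%, 30.2% and 1.93% in neurospheres. Within 2 kb on either side of the start the hippocampus shares were 1.02%, 0.723%, 1.54% and 1.51% for CpG-rich starts. The 422 selected genes with CpG-poor starts had 9.03%, 8.25%, 14% and 10.7% there, which is higher in each of the 4 libraries. In neurospheres the shares were 27.3%, 22.3%, 37.4% and 7.28% for CpG-rich and 57.8%, 54.6%, 65.4% and 25.8% for CpG-poor starts. The other genes had the same order in each H3K36me2 library. Their hippocampus shares were 0.405%, 0.366%, 0.699% and 0.481% for CpG-rich and 3.24%, 2.22%, 3.76% and 3.745% for CpG-poor starts. The dip at CpG-rich starts was therefore present with the intact and with the deleted CxxC exon.

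**Figure D4:**
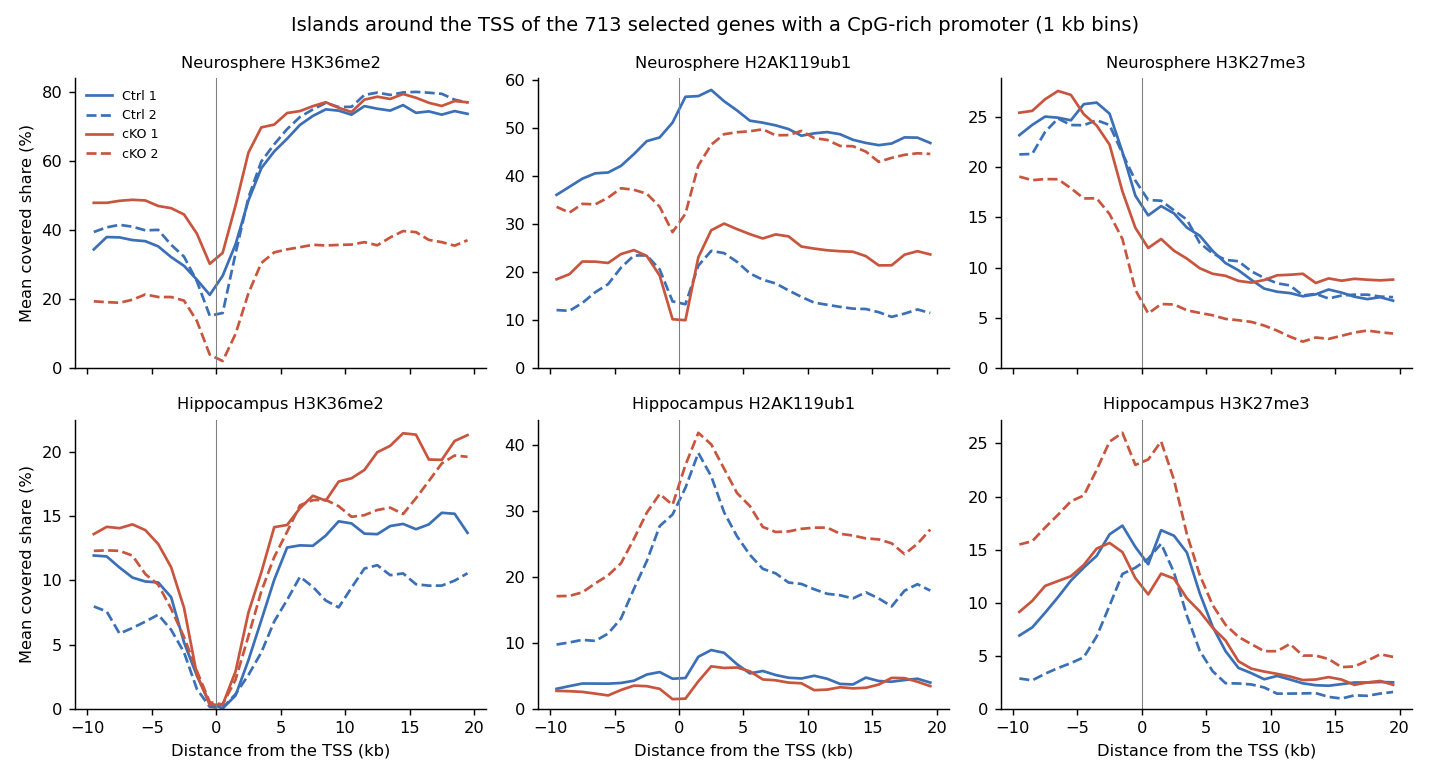
Mean covered share (percent) of the 3 marks in 1 kb bins from 10 kb before to 20 kb after the start site of the 713 selected genes with a CpG-rich start, in all 24 libraries, with a y axis for each panel. Each H3K36me2 line has its minimum in a bin next to the start, from 0.0289% in hippocampus Ctrl replicate 1 to 30.2% in neurosphere cKO replicate 1.

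Going into the gene, the nearest hippocampus H3K36me2 island began a median of 12, 15.2, 11.6 and 14.5 kb after the start, among the 927, 901, 975 and 897 selected genes that had one. In neurospheres the median distance was 1.44, 1.66, 0.418 and 4.84 kb. The other genes with an island had medians of 18.1, 19.4, 17.3 and 19.8 kb in hippocampus. Their neurosphere medians were 6.68, 6.44, 3.43 and 7.49 kb. In the 20 kb before and after the selected genes, hippocampus Ctrl replicate 1 had mean shares of 11.4% and 10.6% against 13.6% in the body.

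Nearly all of the covered sequence was intronic. The selected genes comprise 116 Mb of intron, 2.43 Mb of coding exon and 4.55 Mb of untranslated exon. In hippocampus, 14.7%, 10.7%, 17.7% and 16.1% of intronic bases lay inside H3K36me2 islands, against 9.06%, 7%, 11.8% and 9.57% of coding bases. Neurospheres had no such order, with 69.2%, 72.2%, 73.0% and 39.4% of intronic and 74.8%, 65.5%, 84.3% and 20.7% of coding bases covered.

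H2AK119ub1 covered much of the selected genes in some neurosphere libraries and little in others. The median shares were 43.1% and 3.80% in Ctrl and 18.3% and 41.1% in cKO, and in hippocampus 1.06% and 10.5% in Ctrl and 1.46% and 22.3% in cKO. Replicates of 1 genotype differed more than the genotypes did. The other genes had neurosphere medians of 1.68%, 0%, 0% and 1.32%. In the third GC quartile group the neurosphere means were 26.4%, 8.79%, 12.9% and 26.7% for selected and 18.4%, 7.97%, 10.2% and 19.9% for other genes. In the highest they were 70.3%, 11.9%, 34.9% and 67.0% against 64.0%, 12.2%, 33.7% and 62.2%. At least 50% of the body was covered in all 4 neurosphere libraries in 30 selected genes (2.64%), against 1.81% of the other genes. Gse1 was foremost with 99.8%, 88.9%, 87.7% and 99%. Shb, a signalling adaptor, followed with 99.3%, 96.6%, 84.2% and 97.4%, and Acot7, an acyl-CoA thioesterase, with 97.9%, 93.7%, 83.3% and 98%.

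H3K27me3 was sparse in selected and other genes alike. The median selected gene had 0%, 0%, 1.04% and 0% in neurospheres and 0%, 0%, 0% and 0.677% in hippocampus. The median of the other genes was 0% in each of these libraries. Mean shares in neurospheres were 7.97%, 8.79%, 11.9% and 4.12%, below the 11.3%, 11.2%, 13.4% and 10.5% of the other genes. In hippocampus the means were 3.44%, 1.95%, 3.89% and 7.02%, against 4.25%, 2.29%, 3.87% and 6.09%. There the selected genes were below the others in Ctrl, nearly level with them in cKO replicate 1 and above them in cKO replicate 2. Within each GC quartile group that held any, they were below the others in each hippocampus library. In the highest group the cKO means were 4.33% and 8.92%, against 6.92% and 14.4%. A small group carried both marks, and 12 selected genes (1.06%) had at least 50% H3K27me3 in all 4 neurosphere libraries, against 5.88% of the other genes. Ky was highest with 95.6%, 94.1%, 97.5% and 97.4%, and its H3K36me2 shares were 96.4%, 51.0%, 79.7% and 8.40%. Tox2, an HMG-box factor, carried H3K27me3 in both sources, at 77.9% to 91.2% in neurospheres and 79.8% to 98.2% in hippocampus, and had no H3K36me2 island in hippocampus. Scube2, a factor in Hedgehog ligand release, had 94.9%, 91.9%, 97.3% and 82.4% in neurospheres.

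Overlap of the marks was counted base by base within the selected genes. In hippocampus the share of H3K27me3 bases inside H3K36me2 islands was 5.15%, 2.80%, 7.36% and 8.21%, while 14.3%, 10.4%, 17.2% and 15.7% of all body bases were. The ratio of these was 0.361, 0.269, 0.427 and 0.523, so H3K27me3 was under-represented in H3K36me2 islands in all 4 pairs of libraries. The other genes showed the same, with ratios of 0.379, 0.209, 0.574 and 0.513. In neurospheres the ratio was 0.999, 0.935, 1.10 and 0.438, and 0.928, 0.648, 1.35 and 0.126 in the other genes. For H2AK119ub1 it was 0.962, 0.871, 1.14 and 1.04 in hippocampus and 1.22, 1.01, 1.17 and 0.837 in neurospheres. The other genes had H2AK119ub1 ratios of 1.39, 1.31, 1.80 and 1.69 in hippocampus and 2.47, 1.53, 2.44 and 0.657 in neurospheres. The ratio is over bases, which are not independent, and was not tested.

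Among the selected genes the mean H3K36me2 share over the neurosphere cKO libraries was highest in Cpa5 and also high in its neighbour Cpa4, both metallocarboxypeptidase genes on chromosome 6. Cpa5 was covered over 95.2% and 98.1% in Ctrl and 99.1% and 91.3% in cKO. Cpa4 had 74.2% and 91.7% in Ctrl and 75.9% and 91.7% in cKO. The others of the 10 highest were Stpg4, Zfp366, Cdc42ep4, Oacyl, Angptl2, Slc6a13, Rfx8 and Lyrm7, each with at least 65.0% in cKO replicate 2. Only 2 of the 10, Cdc42ep4 and Lyrm7, had a CpG-rich start. Slc6a13 encodes a GABA transporter and Angptl2 a secreted angiopoietin-like protein.

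At the other end, Slc36a3, an amino acid transporter gene, had 59.1% and 65.8% in Ctrl and 17.1% and 0% in cKO. Rbp2, the gene of a retinol-binding protein on chromosome 9, had 15.6% and 12.7% in the cKO replicates. Nr2e1, the nuclear receptor TLX that maintains neural stem cells, had 52.6% and 53.7% in Ctrl and 43.4% and 0% in cKO, and no H3K36me2 island in hippocampus. In all of these cKO replicate 2 was the lower. Slc36a3 and Lyrm7, from the low and the high end, stand 324.8 kb apart at most in the same run of adjacent selected genes on chromosome 11.

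The longest selected gene was Cdh13, the gene of T-cadherin, whereas the other genes ran to 4435 kb. It spans 1041 kb on chromosome 8 (118283733 to 119324921) and was covered over 64.8% and 76.7% in Ctrl and 67.0% and 47.1% in cKO neurospheres, and over 8.89%, 5.67%, 11.3% and 8.05% in hippocampus. Wwox (913 kb), Rora (734.5 kb), Nav2 (701.4 kb) and Grip1 (633.4 kb) followed. Rora, a nuclear receptor gene, kept 56.6% in cKO replicate 2 and had 20.6%, 15.8%, 14.7% and 20.5% in hippocampus. Wwox carried H2AK119ub1 over 28.7%, 78.4%, 23.7% and 86.5% of its body in hippocampus.

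In hippocampus the least covered library still had the most coverage in Anxa11, whose sequences are printed above and which encodes a calcium-dependent phospholipid-binding annexin. Its H3K36me2 shares there were 77.5% and 49.7% in Ctrl and 75.3% and 77.0% in cKO, and in neurospheres 90.5%, 93.6%, 94.6% and 66.3%. Kcnk5, a potassium channel gene, had 48.4%, 37.4%, 57.3% and 68.4% in hippocampus and Dapk2, a death-associated kinase gene, 49.3%, 35.3%, 53.0% and 64.9%. Cd82, a tetraspanin gene, had 59.96%, 46.8%, 70.4% and 58.1%. Cd82 was also covered by H3K27me3 over 100%, 95.9%, 89.6% and 9.86% in neurospheres and at most 3.50% in hippocampus. Fgr, a Src-family kinase gene of myeloid cells, had 60.1%, 51.4%, 46.0% and 72.3%. Kcnk5 and Dapk2 were higher in both cKO than in both Ctrl hippocampus libraries, and Anxa11, Cd82 and Fgr were not.

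Counts per kb of H3K36me2 island were also compared among selected genes with an island in both neurosphere cKO libraries, by the mean of the replicates. Among the highest were Zfp957 (60.2 and 40.8), Macrod1 (57.5 and 40), Col5a3 (59.1 and 37.5) and Cpa5 (59.5 and 36.7). Replicate 2 was the lower in each, and it covered only 2.41% of Macrod1. Zfp957 was covered over 77.0% in that replicate and over 74.7%, 21.7%, 47.4% and 62.2% in hippocampus.

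Of 12 gene lists with 438 entries, the Wnt pathway list was the longest and held the most selected genes, 14 of its 62 genes of at least 20 kb (22.6%, against 11.7% of all genes). The glial list had the higher share, 27.3%, from 11 genes. The 14 Wnt pathway genes included the ligands Wnt3, Wnt5b and Wnt7b and the receptors and co-receptors Fzd6, Lrp5 and Ror2. The rest of the 14 were the secreted or membrane modulators Dkk3 and Kremen1, the nuclear effectors Tcf7, Tcf7l1 and Tcf7l2, and the planar polarity genes Vangl1, Prickle1 and Daam1. Neurosphere Ctrl coverage of these genes ran from 54.0% in Daam1 to 100% in Dkk3. In cKO replicate 2, Tcf7, Wnt3 and Wnt7b had no island.

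Among the ligands, Wnt3 had the most H3K27me3. Its shares of that mark were 80.5%, 95.5%, 90.1% and 64.0% in neurospheres and 64.0%, 43.0%, 49.9% and 75% in hippocampus, and its hippocampus H3K36me2 share was at most 6.39%. Wnt5b, a non-canonical ligand, had H3K36me2 shares of 21.5% and 19.9% in Ctrl and 36.7% and 29.2% in cKO hippocampus. For Wnt7b they were 34.8% and 8.50% in Ctrl and 28.9% and 39.1% in cKO, so its groups overlapped. Wnt7b carried H2AK119ub1 over 17.4%, 77.5%, 8.50% and 61.3% of its body in hippocampus and 98.3%, 0%, 39.2% and 65.1% in neurospheres.

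Of the receptors, Fzd6 had hippocampus H3K36me2 shares of 11.8% and 8.09% in Ctrl and 24.9% and 22.4% in cKO. Ror2, a receptor tyrosine kinase for Wnt5a, had 20.5% and 7.69% against 36.2% and 32.9%. Lrp5 had 4.91% and 8.45% against 11.4% and 28.5%. Of the 14 genes, 6 had higher shares in both cKO than in both Ctrl hippocampus libraries. The same held for 32.1% of the selected genes with an island there and for 19.0% of all such genes. The 6 were these 3 receptors, Wnt5b, Tcf7l1 and Tcf7l2. Daam1, with 3.35% and 2.85% in Ctrl and no island in cKO, was lower in both.

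The nuclear effectors differed among themselves. Tcf7l1, a repressor of Wnt targets, had 26.9% and 17.1% in Ctrl and 43.6% and 48.7% in cKO hippocampus. For Tcf7l2 the shares were 16.5% and 12%, and 17.6% and 19.8%, with a smaller gap between the groups. Tcf7 overlapped, with 18.9% and 17.6%, and 18.9% and 0%. In neurospheres Tcf7l2 kept the highest share of the 14 in cKO replicate 2, 73.9%, after 84.2%, 87.9% and 84.7% in the other libraries. Dkk3, a secreted Dickkopf protein, went from 94.9% and 100% in Ctrl to 99.1% and 52.9% in cKO neurospheres and had an island in hippocampus in cKO replicate 1 alone (6.04%).

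**Figure D5:**
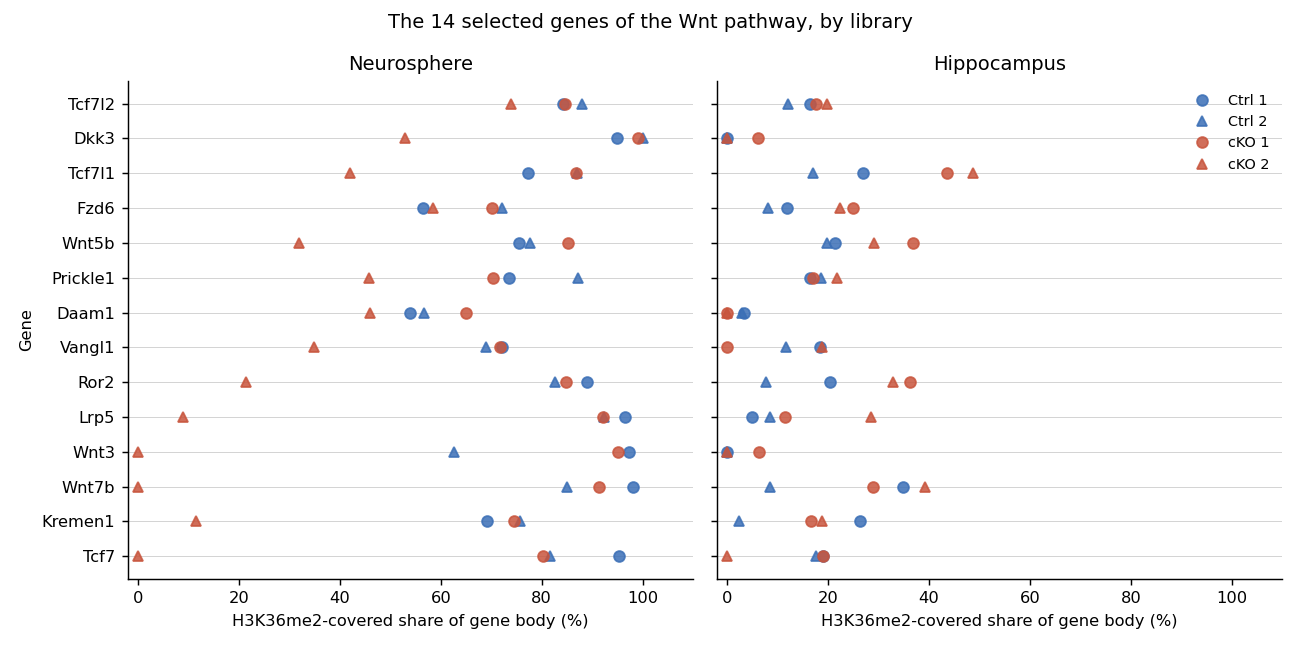
H3K36me2 covered share (percent) of the 14 selected Wnt pathway genes in the 4 hippocampus and 4 neurosphere libraries, each point a library. In hippocampus Tcf7l1 lies at 26.9% and 17.1% in Ctrl and 43.6% and 48.7% in cKO, and in neurospheres cKO replicate 2 is the lowest library for 13 of the 14 genes.

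In the other lists the share of selected genes ran from 0% to 27.3%. None of the 6 H3K36 methyltransferase, 5 demethylase and 8 reader genes of sufficient length was selected. Of 29 neural progenitor genes 3 were (10.3%), Gli2, Notch2 and Msi2. Gli2, a Hedgehog effector, had 41.6%, 30.3%, 42.8% and 32.5% H3K36me2 in hippocampus, while Notch2 had 3.51%, 7.16%, 12.4% and 6.28% and Msi2 5.75%, 2.11%, 8.76% and 4.48%. Notch2 also carried H3K27me3 over 52.2%, 56.8%, 47.6% and 35.1% in neurospheres and 0% in hippocampus.

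Of 65 neuronal and synaptic genes 2 were selected, Cacna1a and Bcl11b. Bcl11b, a transcription factor of deep-layer and hippocampal neurons, had H3K36me2 shares of 88.2%, 90.6%, 88.8% and 40.3% in neurospheres and 0%, 0%, 7.94% and 14.8% in hippocampus. Its hippocampus H3K27me3 shares were 73.6%, 45.9%, 61.8% and 49.6%. The glial list had 3 of 11, namely Mbp of myelin, Bcas1 of young oligodendrocytes and Aldh1l1 of astrocytes, and hippocampus H3K36me2 shares of Aldh1l1 were 27.8%, 28.7%, 33.9% and 24.1%. Pecam1, an endothelial gene, was the only one of 13 microglial, endothelial and mural genes.

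From the remaining lists, Yaf2 was selected among 18 Polycomb genes and E2f3 among 31 mitotic and replication genes, and neither had an H3K27me3 island in any of the 8 libraries. The FGF and EGF list had 4 of 35 (11.4%), Spred2, Foxo3, Rptor and Foxo1. Foxo1, a forkhead factor downstream of growth factor signals, had hippocampus H3K36me2 shares of 17% and 17% in Ctrl and 36.3% and 24.7% in cKO. The chromatin list had 3 of 55, Arid1b, Hdac4 and Hdac7.

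The series asks what loss of the CxxC zinc finger does to these marks. For the hippocampus the median H3K36me2 share of the selected genes stood at 9.88% ± 1.96 for Ctrl and 14.2% ± 1.46 for cKO (mean ± SD over 2 libraries each). The cKO libraries were both above the controls, but with 2 libraries per group no exact test of a single value can pass the threshold. Gene by gene, 1068 selected genes with an island in at least 1 hippocampus library were compared. Of these 343 (32.1%) had higher shares in both cKO than in both Ctrl libraries, against 19.0% of all genes. Lower shares were found in 63 (5.90%), against 7.62%. A gene can be higher only with an island in both cKO libraries. An island in all 4 libraries was present in 65.2% of selected genes and 18.7% of the others. The part of this in the difference was not tested. Each library was also cut to the same covered length, an alternative chosen after seeing the data. Of 1045 selected genes 259 (24.8%) were then higher, against 14.4% of all genes, and 96 (9.19%) were lower, against 11.7%. In islands as deposited, Ctrl replicate 2 covered 115 Mb and the other libraries 156 to 161 Mb, and the part of this shorter coverage in the count was not tested.

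The edgeR quasi-likelihood test on island counts per gene body called 7 of 2341 genes in hippocampus H3K36me2 (0.299%). One of 740 selected genes tested was called, Ralgps1, a guanine nucleotide exchange factor for Ral on chromosome 2 (33133417 to 33371486, minus strand). Scaled to library size as CPM, its Ctrl libraries held 57.9 and 101 and its cKO libraries 443 and 635, which do not overlap. The log2 fold change was 2.76 (SE 0.69, adjusted p = 0.0268). Islands covered 1.18% and 1.68% of the gene for Ctrl against 10.1% and 15.4% for cKO, while counts per kb of island were 28.9, 25.2, 27.9 and 27.4, so the counts followed the covered length. On the density of counts in its islands limma gave a log2 difference of 0.03 (adjusted p = 0.922), and the call was lost whichever library was left out (adjusted p 0.0575 to 0.383), with log2 fold changes of 2.42 to 3.22. DESeq2 called 19 genes (0.812%), among them 2 selected genes. The edgeR count of 7 genes became 3 without Ctrl replicate 1, 2 without Ctrl replicate 2, 11 without cKO replicate 1 and 4 without cKO replicate 2.

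In the other comparisons between genotypes edgeR called no gene at a false discovery rate of 0.05. For H3K36me2 in neurospheres edgeR called 0% of 4748 genes and 0 of 1043 selected genes tested, with 122 genes at an unadjusted p under 0.05, and DESeq2 called 11 genes (0.232%) of which 0 were selected. The smallest unadjusted p among selected genes there belonged to Rbp2, with 63.4 and 53.8 CPM in Ctrl and 14.7 and 17.8 in cKO, followed by Adam2 and Fn1. Shares were higher in both cKO libraries in 4 of 1135 selected genes (10.0% of all genes) and lower in 230 (7.99% of all genes). Without cKO replicate 1 the median log2 fold change of selected genes was -0.806, against -0.0515 over all genes tested. Without cKO replicate 2 it was -0.160 against 0.0106. The selection used the Ctrl libraries of this comparison, and nothing is read from these values.

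For H2AK119ub1 edgeR called 0% of 1427 genes in hippocampus and 0% of 2684 in neurospheres, and so 0 of 442 and 0 of 670 selected genes. Without adjustment 35 and 57 genes had p under 0.05, and DESeq2 called 0 and 3 (0% and 0.112%), among them 0 and 2 selected genes. The selected genes with the smallest unadjusted p were Eefsec, Steap3 and Lnx2 in hippocampus and Samd4, Calr4 and Btbd16 in neurospheres. Samd4 had 58.1 and 38.4 CPM in the Ctrl libraries against 311 and 406 in the cKO libraries (log2 fold change 2.89, SE 0.71, adjusted p = 0.989 by edgeR). Shares in hippocampus were higher in both cKO libraries in 73 of 1035 selected genes (6.06% of all genes) and lower in 14 (2.02%). In neurospheres they were higher in 76 of 1113 (9.61%) and lower in 27 (6.99%). The neurosphere result varied with Ctrl replicate 1, the most covered library of the 4. Without it the median log2 fold change of selected genes was 0.569, against 0.0684 over all genes tested. Without Ctrl replicate 2 the medians were -0.0545 and 0.0235. In hippocampus, with 1 library left out, the median ran from -0.0789 to 0.241 for selected genes and from -0.0830 to 0.0399 over all genes tested.

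For H3K27me3 edgeR called 0% of 1399 genes in hippocampus and 0% of 2419 in neurospheres, and 0 of 198 and 0 of 231 selected genes. Without adjustment 90 and 442 genes had p under 0.05, and DESeq2 called 6 and 227 (0.429% and 9.38%), among them 1 and 30 selected genes. The smallest unadjusted p among selected genes in neurospheres belonged to Map1b, a microtubule-associated protein gene. The Ctrl libraries held 616 and 652 CPM against 136 and 90.5 for cKO (log2 fold change -2.48, SE 0.32, adjusted p = 0.154 by edgeR), and these do not overlap. Igsf11 and Arhgef28 followed, with log2 fold changes of -1.65 and 1.52. In hippocampus the smallest belonged to Greb1, Dgkg and Col5a3, with log2 fold changes of 2.99, 1.58 and 2.24. Shares were higher in both cKO hippocampus libraries in 198 of 620 selected genes (25.1% of all genes) and lower in 4 (2.79%). With libraries cut to equal covered length, 58 of 409 were higher (11.03% of all genes) and 17 lower (7.44%). In neurospheres they were higher in 67 of 684 (21.9%) and lower in 127 (14.1%). Without cKO replicate 1 the median log2 fold change of selected genes in neurospheres was -0.651, against -0.0271 over all genes tested. Without cKO replicate 2 it was -0.0398 against 0.00737. In hippocampus, with 1 library left out, the median ran from 0.0995 to 0.193 for selected genes and from -0.0329 to 0.0513 over all genes tested.

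Between the sources, cKO neurospheres and cKO hippocampi were compared for H3K36me2, since the Ctrl neurospheres had served for the selection. edgeR called 0% of 2438 genes and 0 of 801 selected genes, with 312 genes at an unadjusted p under 0.05, and DESeq2 called 4.88% of all genes and 15 of the selected genes (1.87%). The smallest unadjusted p among selected genes belonged to Myt1l, a neuronal zinc finger factor gene. It had 85.9 and 117 CPM in hippocampus and 1328 and 2648 in neurospheres (log2 fold change 4.29, SE 0.63, adjusted p = 0.121 by edgeR). Srgap3, a Rac-directed GTPase-activating protein gene, had 230 and 179 against 1004 and 1295, and Mtss1 37.2 and 59.3 against 652 and 319. In these 3 genes the sources did not overlap. Without neurosphere replicate 1 the median log2 fold change of selected genes was -0.186, against -0.0463 over all genes tested. Without neurosphere replicate 2 it was 0.27 against 0.0102.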

How the data were processed

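All 24 island files used here were deposited by the authors, 1 per immunoprecipitated library, and hold the read count of each island, a whole number, beside its position in mm10. Per the study's methods, reads were trimmed with cutadapt, aligned to mm10 with Bowtie2 2.4.5, freed of duplicates, and passed to SICER with input DNA as the background; the SICER version is not given in the sources used here. Islands lie on a 200 bp grid with gaps of at least 800 bp, so counts outside islands are not known and a gene without an island is listed at 0. The 12 input samples have no file used here, and 9 islands on the mitochondrial chromosome in 5 libraries were left out.

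Gene bodies came from the mm10 GENCODE annotation. An island's count was divided over its length, and shares were computed per base. Promoters were 2 kb on either side of the start, called CpG-rich where a 1 kb window had at least 50% GC and at least 0.6 of the CpG dinucleotides its base composition predicts. Arhgap26 has 2 overlapping gene models, both counted. The analysis used Python 3.11.15, numpy 2.4.6 and pandas 2.3.3. Genes with an island in all 4 libraries of a comparison were tested with edgeR 4.0.16 (quasi-likelihood, TMM scaling, Benjamini-Hochberg adjustment at 0.05), with DESeq2 1.42.0 and limma 3.58.1 as alternatives. The tests were checked on simulated data. Where labels do not say that libraries came from separate animals or cultures, p-values measure only the spread between these libraries, which may be technical, and counts are not independent molecules.

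The selected genes and all gene lists were chosen with earlier results of these data known. Named genes are up to 4 examples per list, with all 14 for the Wnt pathway added after their values were seen, those with extreme shares, counts per kb or length, those with the smallest p in each comparison, and 3 on each side of the threshold; a few of these are not reported here. Alternatives covered the threshold, gene length, island size, scaling, test, filter, replicate block and each library left out.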

Additional observations from a re-analysis of the deposited data

How the results depend on the processing

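With 2 libraries per group, and counts known only inside islands, modest differences and signal below the calling threshold cannot be seen. A covered share of 60% left 728 selected genes and a length of 50 kb left 739, and either control replicate alone gave 1550 to 1575. The other 4 settings for the selection stayed within 1.5 times the count. Of 55 alternative counts of genes past the threshold, 39 did the same. For H2AK119ub1, limma on island density called 1 gene in hippocampus, and DESeq2 called 3 in neurospheres. For H3K27me3, library size as the sum of island counts called 6 genes in hippocampus, DESeq2 6 there and 227 in neurospheres, and limma 366 in neurospheres. For H3K36me2 in hippocampus the count was 4 by library size, 19 by DESeq2, 0 with islands in at least 2 libraries, 1 with islands of at least 2 kb and 0 by limma. For H3K36me2 in neurospheres DESeq2 called 11 and limma 2, and between the sources DESeq2 called about 1.2e+02 and limma 1. The cause of these shifts was not tested.

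Leaving out 1 library at a time gave in hippocampus 0 to 2 genes (H2AK119ub1), 1 to 25 (H3K27me3) and 2 to 11 (H3K36me2). In neurospheres it gave 0 to 462, 0 to 678 and 0 to 998, and 0 to 525 between the sources. The lone library is then assumed to vary like the other group. The difference in median covered share of the selected genes, cKO minus Ctrl, ranged in hippocampus from -4.32 to 16.5 points (H2AK119ub1), 0 to 0.677 (H3K27me3) and 2.90 to 5.68 (H3K36me2). The neurosphere ranges were -13.5 to 25.9, 0 to 1.04 and -40.4 to 5.30. H3K36me2 in the first part of the body minus the middle stayed at -8.66 to -7.14 points over the cKO libraries.

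At equal covered length the hippocampus H3K36me2 difference in medians was 2.17 points, against 4.29. The numbers of selected genes without overlap moved at that setting, which was chosen after seeing the data. In brackets are the share of selected genes and then that of all genes with an island. For H2AK119ub1, 66 were lower (8.01%, 7.27%) in hippocampus. In neurospheres 179 were higher (17.3%, 11.1%) and 42 lower (4.06%, 6.38%) for that mark. For hippocampus H3K27me3, 58 were higher (14.2%, 11.03%) and 17 lower (4.16%, 7.44%). For neurosphere H3K27me3 43 were higher (6.55%, 15.3%). For H3K36me2, 96 were lower (9.19%, 11.7%) in hippocampus, and 7 were higher (0.617%, 10.2%) and 423 lower (37.3%, 14.1%) in neurospheres. The Ctrl libraries of this neurosphere comparison chose the genes, and nothing is read from its counts.

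Libraries of the same number shared only that number. With the replicate block, 49 genes passed for hippocampus H3K27me3, 8 of them selected and all 8 higher in cKO, 6 for hippocampus H3K36me2 and 0 in each other comparison. Deviations of same-numbered libraries correlated across genes at 0.313, 0.209 and 0.0246 for H2AK119ub1, H3K27me3 and H3K36me2 in hippocampus, -0.302, -0.181 and 0.444 in neurospheres and 0.139 between the sources. With a crossed block, chosen after seeing the data, 0 genes passed for neurosphere H2AK119ub1 and 0 for neurosphere H3K27me3.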
